A study of Homo sapiens with 2 samples.

Results

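The extracellular matrix proteases and inhibitors of 51 genes were followed in the human clear cell renal carcinoma line 786-O and in its SETD2 knockout: 23 matrix metalloproteinases (MMP), 19 ADAMTS proteases, 5 ADAMTS-like proteins (ADAMTSL) and 4 tissue inhibitors of metalloproteinases (TIMP). Members were chosen by gene symbol, as MMP, ADAMTS, ADAMTSL or TIMP followed by a number, among 23375 rows. The row of the pseudogene MMP23A and that of the antisense transcript ADAMTS9-AS2 were left out. The design compared 1 library of 786-O cells labelled as wild type for SETD2 with 1 library of 786-O cells in which SETD2, the enzyme that trimethylates H3K36, was knocked out with a zinc finger nuclease. Both were grown in RPMI1640 with fetal bovine serum and with no other treatment named, and the VHL gene is defective in 786-O and so in both lines. Whether the knockout line was grown from 1 cell is not given in the sources used here. With 1 library per line there is no replicate error. Every difference below therefore compares 2 libraries, and every interval is an exact 95% interval that covers counting error only.

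MMPs and ADAMTS proteases are zinc-dependent enzymes that are made as inactive precursors and cut proteins of the matrix once their prodomain is removed. Most MMPs are secreted, while the membrane-type MMPs stay anchored at the cell surface. Membrane-type MMP14 activates the precursor of MMP2 in a complex that also needs TIMP2, which at higher amounts blocks the same enzymes. ADAMTS proteases carry thrombospondin repeats and have narrower substrates, such as proteoglycans, procollagens and von Willebrand factor, and ADAMTS-like proteins share the repeats but lack the protease domain. In the kidney these enzymes take part in the turnover of basement membrane and interstitial matrix, and in carcinomas they are studied for their part in invasion.

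In the knockout library both collagenases that could be measured, the gelatinase MMP2 and the proteases ADAMTS9 and ADAMTS12 were lower, whereas MMP15, MMP16, ADAMTS7, ADAMTS13, ADAMTS14, ADAMTS15 and the inhibitor TIMP2 were higher. The surface protease MMP14 was the most abundant member per length in both libraries and had nearly the same level in each. A gene was called higher or lower where the whole interval of the ratio of scaled fragments, knockout to wild type, lay beyond 2-fold. Of the 51 members, 43 had at least 10 reads over both libraries and were tested. Of these, 10 were higher, against 5.75% of all 16894 genes tested, and 7 were lower, against 3.37%. In either direction 17 were called, or 39.5% of the members tested, against 9.12% of all genes. The families were picked with earlier results of these data known, so this share is a description. The median log2 ratio of the tested members was 0.10 and that of all genes 0.02, and the members thus lay on both sides of 0. Relative to the 50 nearest expressed genes the members' median was -0.02. Called members were found at every abundance: 6 of the 16 tested with at least 10 but under 200 reads over both libraries, against 12.7% of genes in that range, 4 of the 12 with at least 200 but under 2000 reads, against 17.5%, and 7 of the 15 with at least 2000 reads, against 4.83%. By the ratio alone, with no interval, 13 members were above 2-fold and 12 below it, against 13.4% and 7.49% of all genes.

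**Figure D1:**
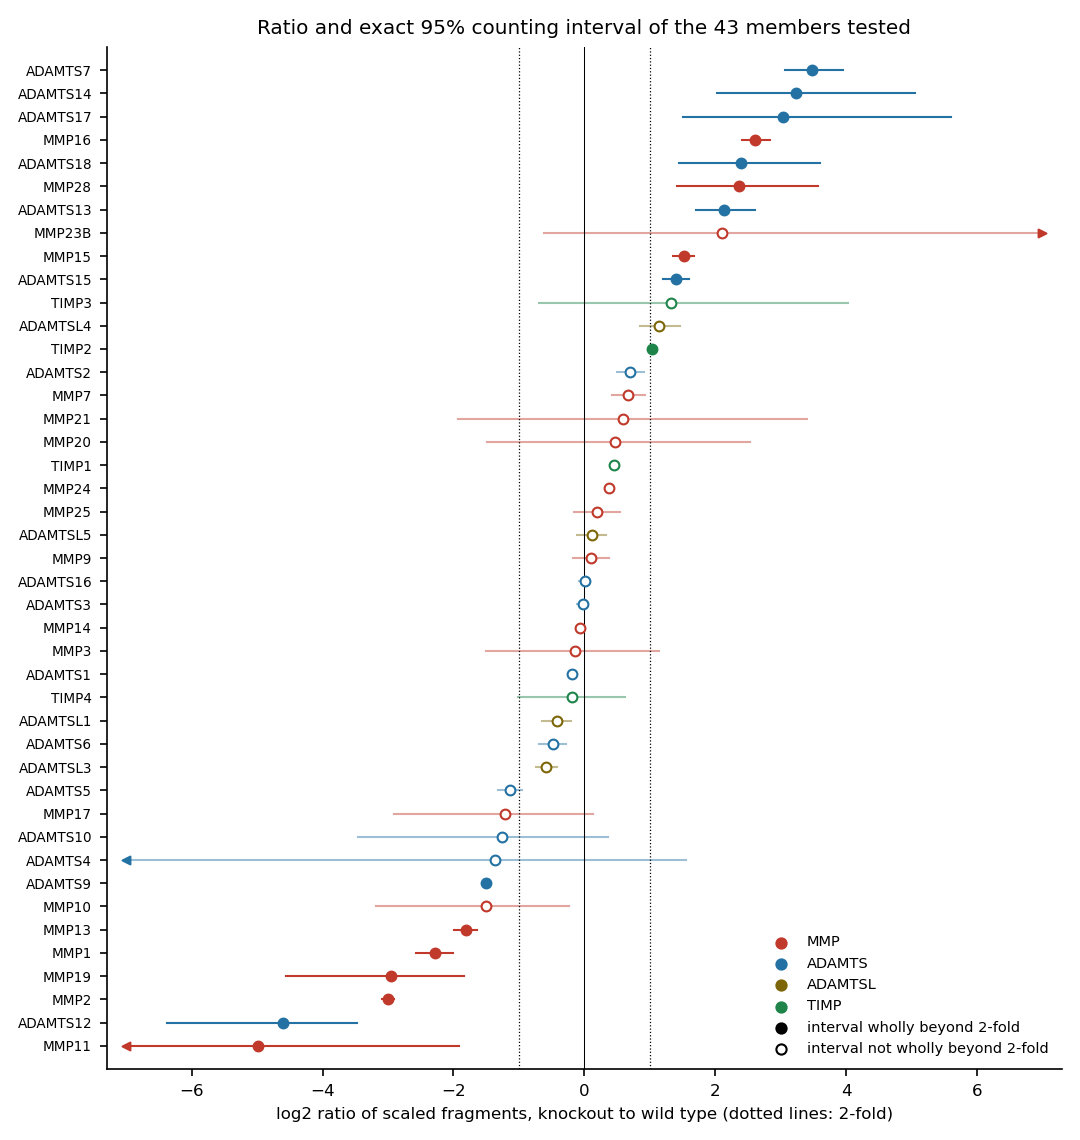
Each row is 1 of the 43 members tested, with its log2 ratio of scaled fragments, knockout to wild type, as a point and its exact 95% counting interval as a line (arrowheads mark intervals that run past the axis). Filled points are the 10 higher and 7 lower members, and colours give the family. MMP11 is at the bottom and ADAMTS7 at the top.

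Of the 26 members tested and not called, 14 had an interval wholly within 2-fold, and for 9 of these it excluded a ratio of 1. The other 12 had an interval that crossed a 2-fold limit. For ADAMTS5 and ADAMTSL4 it was narrow and lay around that limit, and for the other 10, each with at most 32 fragments in either library, it was wide. The 8 members below the count minimum were MMP8, MMP12, MMP26, MMP27, ADAMTS8, ADAMTS19, ADAMTS20 and ADAMTSL2. Of these, MMP8, MMP27, ADAMTS19, ADAMTS20 and ADAMTSL2 had no fragment in either library. A count of 0 allows up to 3 fragments, or 0.0494 CPM (fragments scaled for library size) for wild-type and 0.0577 CPM for knockout cells. MMP12, the macrophage elastase, had 0 and 1 fragments, MMP26 had 1 and 0, and ADAMTS8 had 0 and 2.

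**Figure D2:**
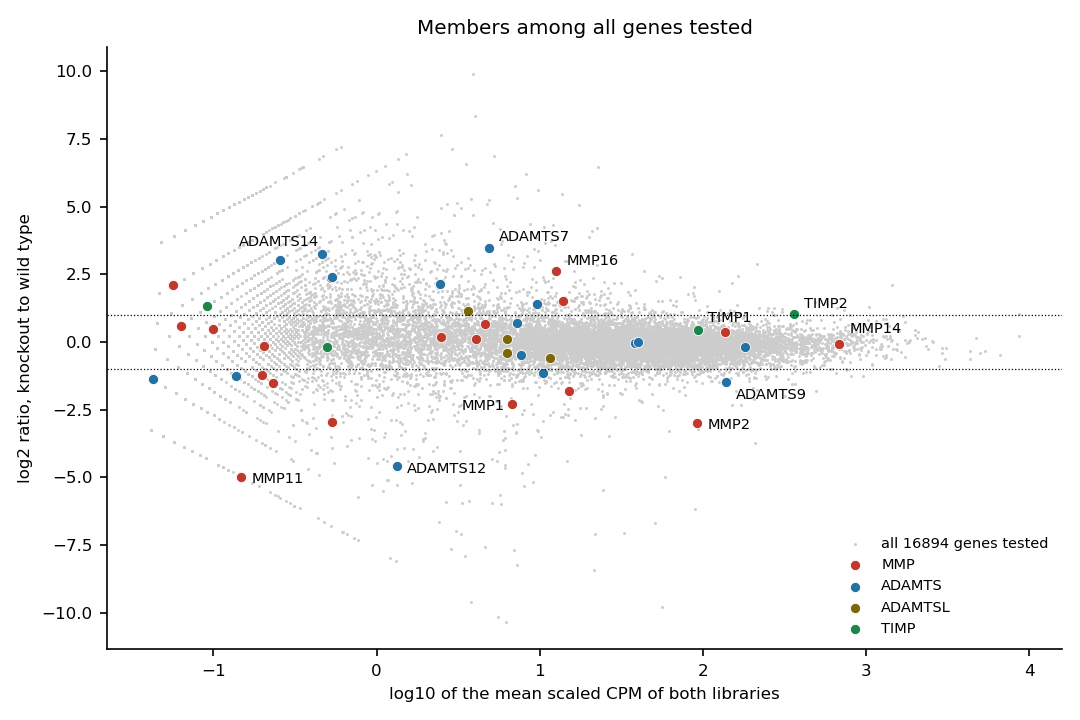
Every gene tested is a grey point, with the mean scaled CPM of both libraries on the x axis (log10) and the log2 ratio, knockout to wild type, on the y axis; members are coloured by family and dotted lines mark 2-fold. MMP2 lies below most genes of like abundance, TIMP2 at 1.04 sits on the upper line, and MMP14 at -0.06 lies near 0.

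Levels were compared between genes by the authors' RPKM, which divides by gene length. MMP14 stood at 139 RPKM in the wild-type and 141 RPKM in the knockout library, above 98.4% and 98.5% of detected genes. TIMP1 and TIMP2 followed in the wild-type library at 60.9 and 45.8 RPKM. MMP2, ADAMTS1, ADAMTS9 and MMP24 then lay between 19.3 and 30.2 RPKM. In the knockout library TIMP2 was at 99.2 RPKM, above TIMP1 at 87.7 RPKM, and MMP2 had gone from rank 4 to rank 9 of the members. In each library 17 of the 51 members exceeded 1 RPKM. RPKM ratios of knockout to wild type were 1.06 times those of scaled fragments for every member, because the authors' library totals were used for them.

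Summed RPKM showed where the differences weighed. The MMPs summed to 205 RPKM in the wild-type and 186 RPKM in the knockout library, and MMP14 made up 68.0% and 75.5% of these sums. Without the 6 membrane-type enzymes, the other 17 MMPs summed to 44.2 and 12.3 RPKM, a ratio of 0.279, and MMP2 carried most of that difference. The membrane-type MMPs summed to 160 and 174 RPKM. The ADAMTS proteases summed to 63.1 and 51.5 RPKM, of which ADAMTS1 made up 46.4% and 52.9% and ADAMTS9 31.2% and 14.3%. The TIMPs summed to 107 and 187 RPKM. The summed MMP level was thus 1.91 times the summed TIMP level in the wild-type library and 0.994 times in the knockout library.

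**Figure D3:**
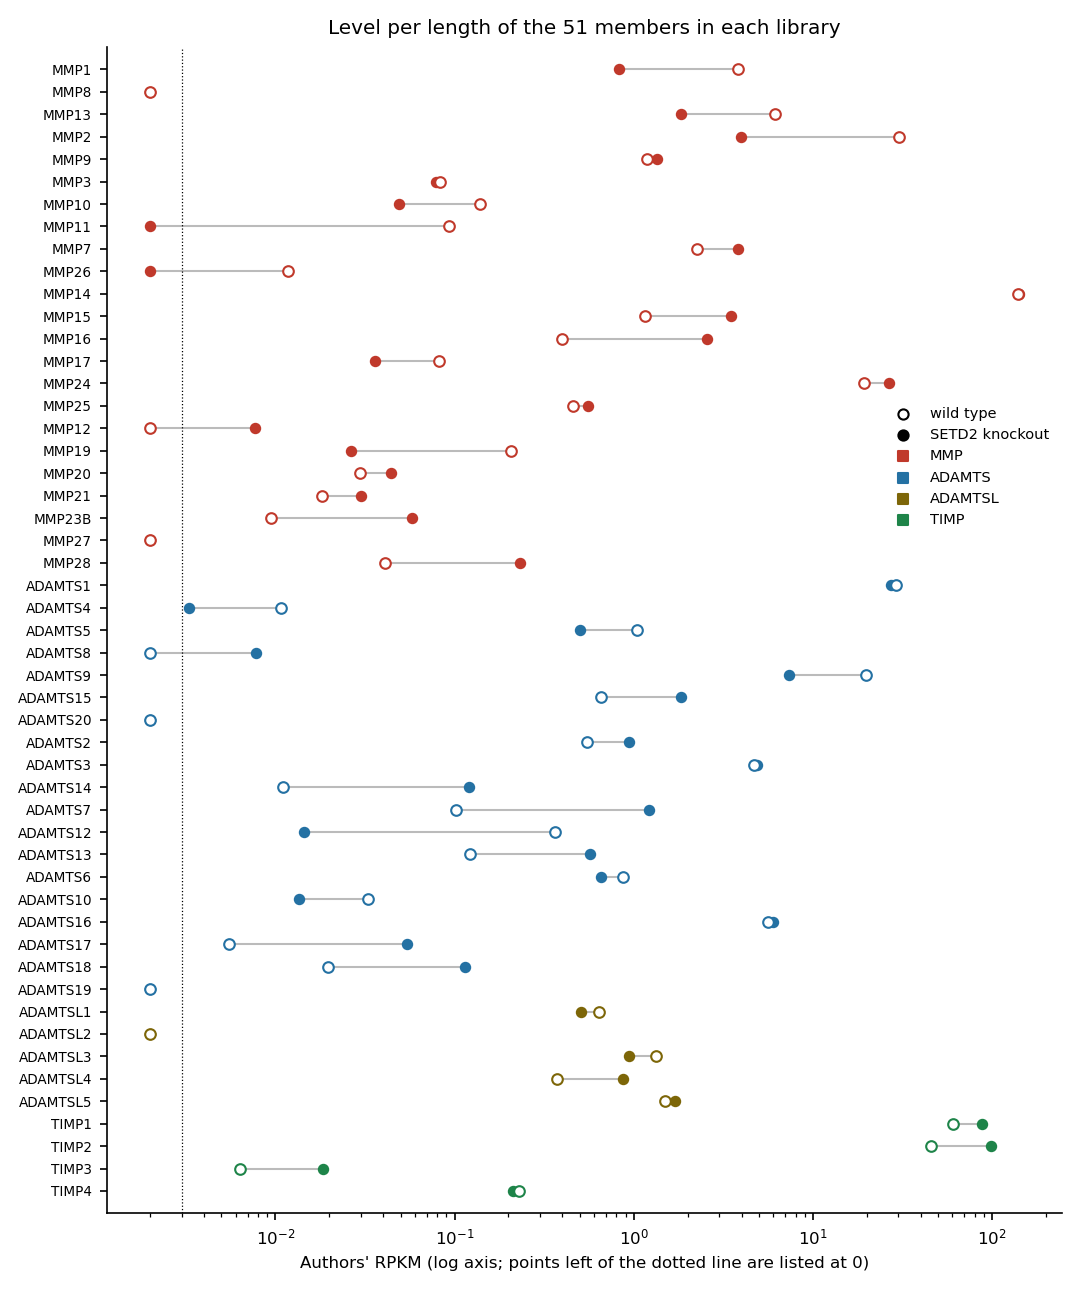
The authors' RPKM of each of the 51 members (log axis) is shown in the wild-type library as an open and in the knockout library as a filled circle, joined by a line; points left of the dotted line are listed at 0, where open circles cover filled ones. MMP14 has overlapping points at 139 and 141 RPKM, MMP2 moves from 30.2 to 3.98 RPKM and TIMP2 from 45.8 to 99.2 RPKM.

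Collagenases open the triple helix of fibrillar collagen. MMP1 (interstitial collagenase, hg19 chromosome 11, 102660641 to 102668966) had 676 fragments in wild-type and 119 in knockout cells, or 3.84 and 0.832 RPKM. Its ratio was 0.205 with an interval of 0.168 to 0.250. MMP13 (collagenase 3, chromosome 11, 102813721 to 102826463) had 1429 and 349 fragments, or 6.13 and 1.84 RPKM, a ratio of 0.285 with an interval of 0.253 to 0.320. The wild-type library was thus the higher for both, and MMP8, the neutrophil collagenase, had no fragment.

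The gelatinases, which degrade denatured collagen and basement membrane collagen, differed from each other. MMP2 (gelatinase A, chromosome 16, 55513081 to 55540586) had 9943 wild-type and 1064 knockout fragments, or 30.2 and 3.98 RPKM. This was 8.01-fold lower (interval 7.52 to 8.54). The 50 expressed genes nearest to MMP2 had a median log2 ratio of 0.09. MMP9 (gelatinase B, chromosome 20, 44637547 to 44645200) had 238 and 219 fragments, or 1.19 and 1.35 RPKM, and its ratio of 1.07 had an interval of 0.889 to 1.29. The intervals of the 2 gelatinases do not overlap.

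Among the stromelysins, which cut many matrix proteins and other MMP precursors, counts were low. MMP11 (stromelysin 3, chromosome 22, 24115036 to 24126503) had 18 wild-type fragments, or 0.0928 RPKM, and no knockout fragment. Against a floor of 3 knockout fragments it was 5.14-fold lower, and its exact interval starts at 3.77-fold. It passed the count minimum through the wild-type library alone. MMP10 (stromelysin 2) had 21 and 6 fragments, a ratio of 0.333 with an interval of 0.110 to 0.854, and MMP3 (stromelysin 1) had 13 and 10, a ratio of 0.897 with an interval of 0.352 to 2.21. MMP7 (matrilysin, chromosome 11, 102391239 to 102401478), a small epithelial MMP without the hemopexin domain, had 217 and 297 fragments, or 2.26 and 3.81 RPKM, and a ratio of 1.60 with an interval of 1.34 to 1.91. It was not called, and its interval lay above 1.

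MMP1, MMP3, MMP7, MMP8, MMP10, MMP12, MMP13, MMP20 and MMP27 are neighbours on chromosome 11, within 435 kb (102391239 to 102826463). The cluster did not differ as a block. MMP7, at one end, had a ratio above 1, and MMP20, the enamel protease beside it, had 5 and 6 fragments. MMP10, MMP1 and MMP13 had ratios between 0.205 and 0.333, and MMP3, which lies between MMP1 and MMP13, was at 0.897 with a wide interval. The median log2 ratio of the 50 expressed genes nearest to MMP1 was -0.14, and the apoptosis inhibitors BIRC3 and BIRC2 before the cluster had ratios of 0.509 and 0.597.

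**Figure D4:**
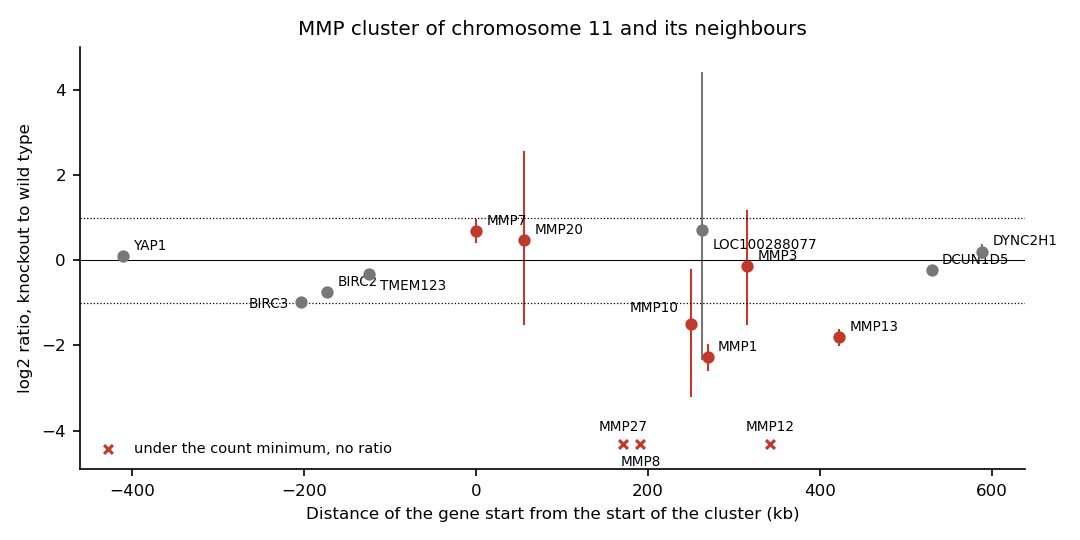
Genes of the MMP cluster on chromosome 11 (red) and their neighbours (grey) are placed by the distance of their start from the start of the cluster, with the log2 ratio, knockout to wild type, as a point and its 95% counting interval as a line; crosses are members under the count minimum. MMP1 at -2.28 and MMP13 at -1.81 lie below both dotted 2-fold lines, and MMP7 at 0.67 lies above 0.

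The cluster members with a promoter entry are MMP7, MMP8, MMP10, MMP20 and MMP27. Of these, MMP7 and MMP10 are printed here, and neither was called. The called cluster members MMP1 and MMP13 have no entry. A part of promoter letters in the ratios was not tested. The 120 bases before the RefSeq start (GRCh38.p14, minus strand, 5′ to 3′) are shown for MMP7 at chr11:102530748-102530867 and MMP10 at chr11:102780629-102780748, whose ratios were 1.60 and 0.333; capitals mark matches to TGANTCA, a looser form of the AP-1 core motif TGAGTCA in which the middle base is free, both searched on either strand.
MMP7: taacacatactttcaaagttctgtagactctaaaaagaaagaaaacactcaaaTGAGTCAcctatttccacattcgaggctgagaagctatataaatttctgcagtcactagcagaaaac
MMP10: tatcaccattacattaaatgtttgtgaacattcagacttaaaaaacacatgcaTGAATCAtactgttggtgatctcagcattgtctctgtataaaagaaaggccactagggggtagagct
Both matches begin 67 bases before the start, and both windows are poor in G and C, at 35.0% and 36.7% against a median of 60.0% over 27305 RefSeq promoters. Within 250 bases before the start, 6.60% of all promoters held TGANTCA, and 4 of the 32 member promoters did, those of MMP7, MMP10, MMP20 and ADAMTS12. The promoters of the cluster members MMP8 and MMP27 held none. The AP-1 core itself was held by 4.16% of all promoters and by 1 of the 32, that of MMP7. A match describes the letters and is not a measured site. TATAAA, the letters of the TATA box, was searched on either strand at any position of these 250 bases. It was held by 11.1% of all promoters and by 8 of the 32. In MMP7, MMP10, MMP26 and ADAMTSL2 the match began 28 to 31 bases before the start. In MMP8, MMP20, MMP21 and ADAMTS10 it began 72 to 110 bases before the start, for ADAMTS10 on the opposite strand. Members without an entry in the promoter table were MMP1, MMP2, MMP3, MMP9, MMP12, MMP13, MMP16, MMP17, MMP19, MMP25, MMP28, ADAMTS1, ADAMTS4, ADAMTS5, ADAMTS8, ADAMTS9, ADAMTS15, ADAMTS16 and TIMP2.

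Of the 6 membrane-type MMPs, 2 were higher and 0 lower, against 5.75% and 3.37% of all genes. MMP14 (MT1-MMP, chromosome 14, 23305793 to 23316803) had 42202 wild-type and 34598 knockout fragments and a ratio of 0.956 with an interval of 0.943 to 0.970. Its direction depended on the scaling, with 1.01 under total count scaling and by RPKM, so no direction is given for it. MMP24 (MT5-MMP, chromosome 20, 33814539 to 33864804), at 19.3 and 26.5 RPKM, had 7161 and 7991 fragments and a ratio of 1.30 with an interval of 1.26 to 1.34. These abundant enzymes thus stayed well within 2-fold.

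MMP15 and MMP16 differed more. MMP16 (MT3-MMP, chromosome 8, 89049460 to 89339717) had 215 wild-type and 1132 knockout fragments, or 0.396 and 2.57 RPKM, and a ratio of 6.14 with an interval of 5.30 to 7.14. MMP15 (MT2-MMP, chromosome 16, 58059282 to 58080804) had 438 and 1075 fragments, or 1.15 and 3.48 RPKM, and a ratio of 2.86 with an interval of 2.56 to 3.21. On the level scale both stayed far under MMP14 in the knockout library, at 1.87% and 1.38% of the summed MMP RPKM for MMP15 and MMP16. The membrane-anchored MMP25 had 140 and 137 fragments (ratio 1.14, interval 0.895 to 1.45), and MMP17 had 17 and 6 (ratio 0.412, interval 0.133 to 1.09).

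Of the remaining MMPs, 5 were tested. Of these 1 was higher and 1 lower, both at low levels, against 5.75% and 3.37% of all genes. MMP28 (epilysin, chromosome 17, 34092876 to 34122640), which is expressed in resting epithelia, had 10 wild-type and 46 knockout fragments, or 0.0410 and 0.232 RPKM, a ratio of 5.37 with an interval of 2.67 to 11.9. MMP19 (chromosome 12, 56229214 to 56236735), a basement membrane protease, had 58 and 6 fragments, or 0.208 and 0.0265 RPKM, a ratio of 0.121 with an interval of 0.0425 to 0.279. The log2 ratio of MMP19 was -2.95, and the median over its 50 nearest expressed genes was -0.38. MMP21 had 3 and 4 fragments and MMP23B 1 and 5, and MMP23B shares its sequence with MMP23A, which had 2 and 1, so reads of this pair may be split between them.

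Among the ADAMTS proteases that cut large aggregating proteoglycans such as versican and aggrecan, levels differed in both directions. ADAMTS9 (chromosome 3, 64501331 to 64673365) had 12335 wild-type and 3749 knockout fragments, or 19.7 and 7.37 RPKM. Its ratio was 0.354 with an interval of 0.342 to 0.368. ADAMTS1 (chromosome 21, 28208606 to 28217728) had 11668 and 8814 fragments, or 29.3 and 27.2 RPKM, and a ratio of 0.881 with an interval of 0.857 to 0.906. ADAMTS1 thus stood at 1.49 times the RPKM of ADAMTS9 in the wild-type and at 3.70 times in the knockout library.

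ADAMTS15 (chromosome 11, 130318869 to 130346539), a versican-cleaving protease, was higher, with 320 wild-type and 724 knockout fragments, or 0.658 and 1.83 RPKM, and a ratio of 2.64 with an interval of 2.31 to 3.02. ADAMTS8, its neighbour, had 0 and 2 fragments. ADAMTS5 (chromosome 21, 28290231 to 28339439), the aggrecanase next to ADAMTS1, had 867 and 338 fragments and a ratio of 0.455, with an interval of 0.400 to 0.516 that crossed the limit. ADAMTS4, another aggrecanase, had 4 and 1 fragments. Of 5 proteases of this kind that were tested, 1 was higher and 1 lower, against 5.75% and 3.37% of all genes.

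The procollagen N-proteinases remove the amino-terminal propeptide of fibrillar procollagens. ADAMTS14 (chromosome 10, 72432559 to 72522195) was higher, with 5 wild-type and 44 knockout fragments, or 0.0111 and 0.120 RPKM, and a ratio of 10.3 with an interval of 4.08 to 33.2. It remained the lowest of the 3 by RPKM in the knockout library. ADAMTS3 (chromosome 4, 73146686 to 73434516) had 2339 and 1968 fragments, or 4.69 and 4.86 RPKM, a ratio of 0.981 with an interval of 0.924 to 1.04, and turned to 1.03 under total count and upper quartile scaling. ADAMTS2 had 333 and 464 fragments, a ratio of 1.63 with an interval of 1.41 to 1.88.

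ADAMTS7 and ADAMTS12, a closely related pair that cleaves cartilage oligomeric matrix protein, differed in opposite directions. ADAMTS7 (chromosome 15, 79051545 to 79103773) had 48 wild-type and 464 knockout fragments, or 0.102 and 1.21 RPKM, and a ratio of 11.3 with an interval of 8.36 to 15.5. ADAMTS12 (chromosome 5, 33527287 to 33892124) had 155 and 5 fragments, or 0.365 and 0.0145 RPKM, and a ratio of 0.0376 with an interval of 0.0120 to 0.0897. The library with more ADAMTS12 was thus the one with less ADAMTS7, and their summed level was 0.467 RPKM in the wild-type and 1.23 RPKM in the knockout library. The median log2 ratios of the 50 nearest expressed genes were -0.17 for ADAMTS7 and 0.15 for ADAMTS12.

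Their promoters are unlike in letters. They are shown because these paralogs had the highest ratio of the members and the lowest ratio among members with a fragment in each library, as the 120 bases before the RefSeq start (GRCh38.p14, minus strand, 5′ to 3′), chr15:78811465-78811584 for ADAMTS7 and chr5:33891991-33892110 for ADAMTS12, with TGANTCA matches in capitals.
ADAMTS7: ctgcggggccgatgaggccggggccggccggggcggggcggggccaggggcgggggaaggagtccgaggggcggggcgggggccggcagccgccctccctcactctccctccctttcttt
ADAMTS12: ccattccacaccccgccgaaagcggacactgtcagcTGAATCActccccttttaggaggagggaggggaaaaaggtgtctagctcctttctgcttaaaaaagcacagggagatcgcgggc
The ADAMTS7 window has a G and C content of 80.8%, above 93.6% of all RefSeq promoters, and that of ADAMTS12 one of 55.0%, above 38.3%. The TGANTCA match of ADAMTS12 begins 84 bases before the start, and the ADAMTS7 window holds none.

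Other ADAMTS genes that were called were all higher and low in level. ADAMTS13 (chromosome 9, 136279459 to 136324508), which cleaves von Willebrand factor, had 55 wild-type and 209 knockout fragments, or 0.122 and 0.573 RPKM, a ratio of 4.43 with an interval of 3.28 to 6.08. Its substrate gene VWF had 1 fragment in each library. ADAMTS18 (chromosome 16, 77316025 to 77469011) had 10 and 47 fragments, or 0.0197 and 0.114 RPKM, a ratio of 5.48 with an interval of 2.73 to 12.2. ADAMTS17 (chromosome 15, 100511643 to 100882183), in which mutations cause a Weill-Marchesani-like syndrome, had 3 and 24, or 0.00553 and 0.0545 RPKM, a ratio of 9.33 with an interval of 2.83 to 48.4. It passed the count minimum through the knockout library alone. ADAMTS16 (chromosome 5, 5140443 to 5320412), which has been linked to blood pressure, was far more abundant, with 2410 and 2072 fragments, or 5.65 and 5.99 RPKM, and a ratio of 1.003 with an interval of 0.945 to 1.06. ADAMTS6 had 545 and 334 fragments (ratio 0.715, interval 0.622 to 0.821) and ADAMTS10 12 and 4.

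None of the 4 tested ADAMTS-like genes was called, against 9.12% of all genes, and 4 genes are too few to set them apart from that share. ADAMTSL4, which binds fibrillin microfibrils, had 138 wild-type and 262 knockout fragments and a ratio of 2.21 with an interval of 1.80 to 2.74. ADAMTSL1 had 439 and 281 (ratio 0.747), ADAMTSL3 838 and 481 (ratio 0.669) and ADAMTSL5 365 and 338 (ratio 1.08). Their levels ran from 0.374 to 1.70 RPKM, and they had no common direction.

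The inhibitors were dominated by TIMP1 and TIMP2. TIMP2 (chromosome 17, 76849059 to 76921472), a co-factor of MMP2 activation as well as an inhibitor, had 14358 wild-type and 25221 knockout fragments. Its ratio of 2.05 had an interval of 2.01 to 2.09, so that it passed the limit narrowly. It no longer passed with DESeq2 size factors, which gave a ratio of 2.03, or with a 99% interval. TIMP1 (X chromosome, 47441690 to 47446190), a secreted inhibitor of most soluble MMPs, had 4783 and 5589 fragments, and its ratio of 1.36 had an interval of 1.31 to 1.42.

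TIMP3 (chromosome 22, 33196802 to 33259028), the inhibitor bound to matrix that also blocks ADAMTS4 and ADAMTS5, had 3 wild-type and 7 knockout fragments, or 0.00638 and 0.0183 RPKM, a ratio of 2.72 with an interval of 0.621 to 16.3. TIMP4 (chromosome 3, 12194568 to 12200851) had 32 and 24 fragments, or 0.229 and 0.211 RPKM, a ratio of 0.875 with an interval of 0.493 to 1.53. TIMP3 was thus near the limit of detection, and both inhibitors lay far under TIMP1 and TIMP2 by RPKM.

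The 3 genes of the MMP2 activation complex went different ways. MMP2 stood at 0.217 times the RPKM of MMP14 in the wild-type library and at 0.0283 times in the knockout library. MMP14 stood at 3.04 times the RPKM of TIMP2 in the wild-type and 1.42 times in the knockout library. Against TIMP2, MMP2 was at 0.659 times its RPKM and at 0.0401 times. Protein amounts and enzyme activity were not measured.

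The 10 higher members lay on 7 chromosomes and the 7 lower ones on 6. The median log2 ratio of the 50 nearest expressed genes lay between -0.24 and 0.27 for the higher members and between -0.38 and 0.15 for the lower ones. Relative to these neighbours, every called member differed by at least 1.22 on the log2 scale. The call itself required an interval beyond 2-fold, so this difference was largely set by the rule. A regional part in the differences was not tested.

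Coordinates of 13 members overlapped those of another row, 2 of them higher and 3 lower, and strand use is not given in the sources used here. The start of ADAMTS13 overlaps REXO4, which had 2736 and 2684 fragments, and MMP19 overlaps TMEM198B, which had 275 and 228. Reads of these pairs cannot be told apart by strand. ADAMTS9 overlaps its antisense transcript, which had 45 and 57 fragments, and TIMP2 a row with 2 and 13, small counts beside their own. MMP1 overlaps an uncharacterised row with 2 and 3 fragments. TIMP1, TIMP3 and TIMP4 lie within the synapsin genes SYN1, SYN3 and SYN2, whose rows had at most 8 fragments.

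Other genes of matrix proteolysis were counted by the same rule, by which 5.75% of all genes were higher and 3.37% lower. Of 17 other metzincin proteases, the wider clan that holds the ADAM and astacin enzymes, 14 were tested, 2 were higher and 0 lower, with a median log2 ratio of 0.26. TLL2, a tolloid-like astacin protease, had 231 wild-type and 923 knockout fragments, a ratio of 4.66 with an interval of 4.03 to 5.41. ADAM23, a protein without protease activity, had 0 and 22, 8.55-fold higher when the wild type is set to 3 fragments (its exact interval starts at 6.39). It passed the count minimum through the knockout library alone. The most abundant by mean CPM, the sheddases ADAM9 and ADAM10, had ratios of 1.26 and 1.14.

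Of 23 activators, inhibitors and clearance receptors, 21 were tested, 3 were higher and 2 lower, against 5.75% and 3.37% of all genes. The list's median log2 ratio was -0.07. KLK6, a serine protease, had 2 and 123 fragments (ratio 71.7, interval 19.4 to 599), and SPOCK2, a testican proteoglycan, had a ratio of 6.01. SPOCK3, another testican, had 0 and 32 fragments, 12.4-fold higher against that floor (its interval starts at 9.55). KLK6 and SPOCK3 passed the count minimum through the knockout library alone. PCSK6, a proprotein convertase, had 144 and 24 fragments, a ratio of 0.194 with an interval of 0.121 to 0.301, and TFPI2, a matrix-bound protease inhibitor, a ratio of 0.397 with an interval of 0.386 to 0.409. Relative to its 50 nearest expressed genes TFPI2 was not called. THBS1, a matrix glycoprotein abundant in both libraries, had a ratio of 0.955, and the membrane-bound MMP inhibitor RECK one of 1.01.

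Of 22 substrates, 18 were tested, 3 were higher and 3 lower, against 5.75% and 3.37% of all genes. The list's median log2 ratio was -0.13. FN1, fibronectin, had a ratio of 2.05 with an interval of 2.04 to 2.05, so that it passed the limit narrowly. FBN1, the fibrillin bound by ADAMTS-like proteins, had a ratio of 2.88, and RELN, a large matrix protein cut by ADAMTS enzymes, had 3.18. TNC, tenascin C, was lower with a ratio of 0.232. COL3A1 had 20 and 2 fragments (interval 0.0132 to 0.480), and COL1A2 had 14 and 0, with an exact interval that starts at 2.84-fold lower. Both collagens passed the count minimum through the wild-type library alone and are also fibroblast markers. COL1A1, which is on both lists too, had 418 and 805 fragments, a ratio of 2.25 with an interval of 1.99 to 2.53. VCAN, the versican cut by ADAMTS1 and ADAMTS9, had a ratio of 1.10, and no fragment was counted for COMP, a substrate of ADAMTS7.

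Of 24 cytokines and transcription factors known to induce these proteases, 22 were tested. Among them 1 was higher and 3 lower, against 5.75% and 3.37% of all genes. The list's median log2 ratio was -0.21. IL6 had 4241 wild-type and 789 knockout fragments, a ratio of 0.217 with an interval of 0.201 to 0.234. ETV4, an ETS factor, had a ratio of 0.258, and TNF had 386 and 8 fragments. The 1 higher gene was SNAI1, with a ratio of 2.75. The factors ETS1 and FOSL2, the most abundant of the list by mean CPM, had ratios of 0.614 and 1.09. FOSL1, an AP-1 subunit and the highest of the list by RPKM at 94.4 and 56.9, had a ratio of 0.571, and IL1B had 2 and 1 fragments.

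The wild-type library held 62304084 and the knockout library 50670012 fragments in genes. SETD2 itself had 4908 and 1404 fragments, a ratio of 0.334 with an interval of 0.314 to 0.354. Of 7 markers of renal carcinoma cells, 6 were tested and none was called, while CA9 had 1 and 0 fragments. The 7 markers summed to 6972 and 4892 CPM, of which VIM made up 5234 and 3406 CPM. Of 6 leukocyte, 7 fibroblast and 5 endothelial markers, 5, 6 and 3 were tested. Against 5.75% of all genes higher and 3.37% lower, 2, 0 and 0 of these were higher (LCP1 and CD14) and 0, 3 and 0 lower (LUM, COL3A1 and COL1A2). COL3A1 and COL1A2 passed the count minimum through the wild-type library alone. Their summed levels were 93.6 and 320 CPM for leukocyte markers, of which LCP1 made up 50.9 and 277 CPM, 12.6 and 17.7 CPM for fibroblast markers, of which COL1A1 made up 6.89 and 15.5 CPM, and 2.60 and 1.11 CPM for endothelial markers. PTPRC, PECAM1 and DCN had at most 2 fragments in either library. Other markers of the same lists were detected. CD68 had 2344 wild-type and 2061 knockout fragments, CSF1R 198 and 68, LUM 251 and 79, and ROBO4 130 and 46. A part of these markers in the differences of the members was not tested, and in bulk RNA fewer cells with a transcript and less RNA per cell cannot be told apart.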

How the data were processed

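Total RNA of both lines was sequenced from standard Illumina libraries, per the labels' protocols. The deposited tables list 1 read count and 1 RPKM per gene, per the file headers. The tools named in the submitters' processing notes are TopHat2 2.0.6, Bowtie and HTSeq, on hg19. Settings: not given in the sources used here, and the same holds for strand use. Every deposited count was an even number, as when both mates of a fragment are counted, and was halved to fragments, a step the test design did not foresee. Of 23398 rows, 23 chromosome Y rows that repeat an X gene were dropped.

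Libraries were scaled by TMM (edgeR 4.0.16, R 4.3.3) using 16894 genes whose reads sum to 10 or more. Each ratio of scaled fragments has an exact 95% interval by the Clopper-Pearson method, conditional on the sum of both counts. For log2 ratios 0.5 fragments were added to each count. PCR duplicates are not marked, so intervals and the floor of 3 fragments cover counting error only. With 1 library per group, no p-value was computed. Both libraries were simulated with counting error alone and 200 changed genes among 16650. Then 100% of 4-fold and 100% of 8-fold changes were recovered, 1 unchanged gene was called and 95.5% of intervals held the true ratio. The changed genes were drawn only from those with a mean above 1 CPM over both libraries. Recovery at lower counts was not tested, so these shares do not cover members with few fragments.

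Biotypes and promoters came from RefSeq (GRCh38.p14) by symbol, and 32 of 51 members had a promoter. Members and lists were chosen with earlier results of these data known. Values are given in full for called members, all TIMPs and the 10 highest members by RPKM in either library; other members are given with both counts from 20 fragments. From each list up to 3 higher, 3 lower and the 2 most abundant genes are named (1 gene is not reported here), and RECK, VWF, COMP, COL1A1, FOSL1, IL1B and members with fewer fragments were added after their values were seen. Alternatives were total count, upper quartile and DESeq2 1.42.0 scaling, minimums of 1 and 50 reads, undivided counts, intervals beyond 1.5-fold, 99% intervals, no interval, 2 added fragments, the AP-1 letters, RPKM ratios and ratios relative to the 50 nearest expressed genes (at least 100 reads).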

Additional observations from a re-analysis of the deposited data

How the results depend on the processing

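The count of higher members ranged from 8 to 13 and that of lower members from 4 to 12 over the alternatives tried. The count of lower members moved by more than 1.5 times under 2 of them. It was 12 with the ratio alone and no interval, which added MMP10, MMP17, ADAMTS4, ADAMTS5 and ADAMTS10, members with few fragments other than ADAMTS5. It was 4 when the 13 members that overlap another row were left out, an alternative chosen after seeing the data, which also removed MMP1, MMP19 and ADAMTS9. All 10 higher and 7 lower members kept their call under total count and upper quartile scaling, with a minimum of 1 read, with undivided counts and relative to the 50 nearest expressed genes. TIMP2 lost its call with DESeq2 size factors and with a 99% interval, and MMP11 left the test with a minimum of 50 reads. ADAMTS5 was called lower with undivided counts, where 4.18% of all genes were lower. ADAMTSL4 was called higher relative to its neighbours, where 5.9% of all genes were higher. Both were called beyond 1.5-fold. The members' median log2 ratio ranged from -0.02 to 0.19. No called member changed direction under a scaling. Among the gene lists, lower substrates went from 3 to 1 with a 99% interval, where 2.85% of all genes were lower. Under total count and upper quartile scaling, substrates went from 3 to 4 higher and from 3 to 2 lower. Of all genes, 6.4% and 6.37% were higher under these scalings and 2.9% and 2.91% lower. Calls of the cell type markers were not followed over the alternatives. Lower activators and inhibitors went from 2 to 1 relative to the nearest genes, where 2.54% of all genes were lower. Substrates went from 3 to 2 in either direction in that setting, where 5.9% of all genes were higher. Beyond 1.5-fold, a looser limit, 10.4% of all genes were higher and 9.17% lower. Activators and inhibitors then had 5 higher and 4 lower of 21 tested, and substrates 5 and 5 of 18. Lower inducers went from 3 to 6 of 22. No paired analysis was possible because each group holds 1 library. Depth limits the members under 20 fragments in both libraries, 17 of 51, for which only large ratios could be called.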
